A study of Mus musculus with 16 samples.

Results

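The comparison set the medium gate against the negative gate of a FOXA2 sort, with 4 libraries each, or 8 of the 16 libraries in the series. The medium libraries came from cells whose label gives medium FOXA2 expression and the negative libraries from cells labelled negative for FOXA2. Both groups, and the low and high gates beside them, were R1 mouse embryonic stem cells carrying a FOXA2-Venus reporter, grown as neural tube organoids to day 4 and given RA, retinoic acid, for 18 hours. R1 is a long-established mouse embryonic stem cell line, and Venus is a yellow fluorescent protein that reports FOXA2 in living cells. The comparison asked how gene expression differed between cells at an intermediate FOXA2 level and cells without it. RNA was read by BRB-seq, a bulk method that barcodes each sample at the start and counts the 3′ ends of transcripts. The labels do not give the borders of the gates, the number of organoids or cells behind a library, or whether the library numbers 1 to 4 come from separate cultures. P-values therefore describe only how far these libraries spread, which may be technical.

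FOXA2 is a forkhead transcription factor that binds DNA in closed chromatin and is known for its part in the notochord, the definitive endoderm and the floor plate. The floor plate is the strip of cells at the ventral midline of the neural tube, which secretes SHH, netrins and Slit proteins and so patterns the tissue beside it. Cells further dorsal in the tube use PAX and ZIC transcription factors, and cells that have not yet left the stem cell state use NANOG and its partners.

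Counts ran from 5155331 to 7017046 in the medium libraries and from 5451076 to 9961032 in the negative ones, so that 1 count was worth 0.142 to 0.197 CPM (counts scaled to a common library total) in medium and 0.102 to 0.182 CPM in negative. The 13 mitochondrial genes held 1.61% to 2.33% of the counts in medium and 1.86% to 2.18% in negative. Medium 2 stood apart from the rest of its gate on the third principal component, which held 9.01% of the variance (-36.5, against 15.0 to 21.7 for medium 1, 3 and 4), and negative 3 lay at -18.2 there, against -1.74 to 7.14 for the other negative libraries. Of the genes that mark the neural lineage, Sox1 and Sox2 were listed at 0 counts in all 16 libraries, whereas Rfx4, Ncam1 and Hes5 were read in every one of the 8. Foxa2 itself had 55.9, 60.0, 38.5 and 53.4 CPM in medium 1 to 4 and 1.78, 2.95, 5.28 and 1.64 CPM in negative 1 to 4 (log2 fold change 4.23, SE 0.262, adjusted p = 1.27e-10). All 4 medium libraries lay above all 4 negative ones for Foxa2, but FOXA2 defined the gates, so this is a check and not a result.

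Medium and negative differed in 1175 of 13891 genes tested (8.46%), of which 589 (4.24%) were higher and 586 (4.22%) lower in medium, at an adjusted p under 0.05 in edgeR's quasi-likelihood test across all genes. Without medium 2, 546 were higher and 526 lower, and 898 calls were shared with the full fit. The median log2 fold change of the called genes was 0.90 among the higher ones and -1.002 among the lower ones, and over all genes tested it was 0.0013. Among the higher genes 256 changed by more than 2-fold and 72 by more than 4-fold. Among the lower genes 294 and 110 did so. A gene is called higher, lower, risen or fallen here where it passed in the full fit and in each of 16 fits that left out 1 library, medium 2 included. That held for 327 higher genes (2.35% of those tested) and 316 lower ones (2.27%), or 643 in all (4.63%), and these shares are the background for the counts of each gene group. The 4 medium libraries lay wholly above the 4 negative ones in 852 genes (6.13%) and wholly below them in 937 (6.75%). Levels are CPM, given by library in the order 1 to 4 or as mean ± SD over 4 libraries, and fold changes are log2 of medium over negative. In bulk RNA, fewer cells of a type and less RNA per cell cannot be told apart.

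**Figure D1:**
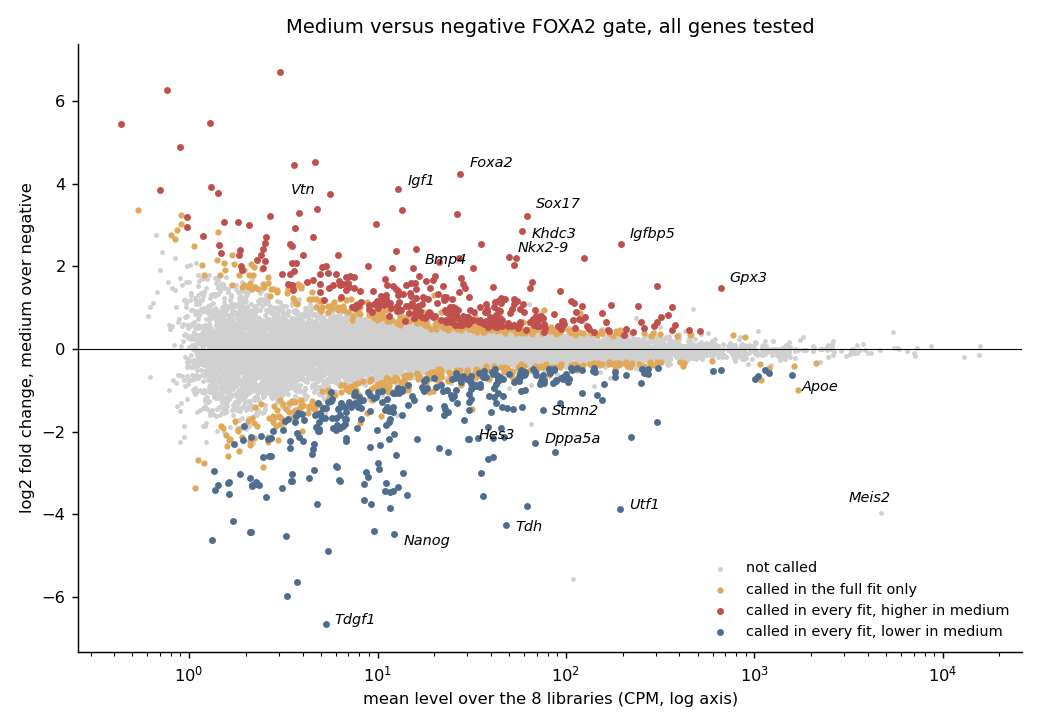
Log2 fold change of medium over negative (vertical axis) against the mean level over the 8 libraries in CPM (horizontal log axis) for the 13891 genes tested. Red and blue points are the 327 higher and 316 lower genes called in every fit, orange points were called in the full fit only, and grey points were not called; Foxa2, which set the gates, lies at 4.23.

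The floor plate list, without Foxa2, had 8 tested genes, of which 5 rose in every fit and 0 fell, with a median log2 fold change of 0.91. Foxa1, the closest relative of Foxa2, had 5.90, 10.4, 4.15 and 7.08 CPM in the medium libraries and 0.648, 0.347, 0 and 0.205 CPM in the negative ones (log2 fold change 4.45, SE 0.512, adjusted p = 2.63e-07). Every medium library lay far above every negative one, where the gene was at or near 0. Lmx1b, a LIM homeobox factor of the floor plate of the midbrain and of the roof plate, averaged 11.2 ± 2.62 CPM in medium and 5.10 ± 0.898 CPM in negative (log2 fold change 1.14, SE 0.263, adjusted p = 0.00432). Spon1 encodes F-spondin, a matrix protein that floor plate cells secrete. It had 20.3, 14.2, 16.9 and 18.6 CPM in medium and 6.48, 9.03, 8.55 and 12.0 CPM in negative (log2 fold change 0.93, SE 0.188, adjusted p = 0.00108), so that the groups did not overlap but came close. The repellent guidance cues Slit1 and Slit3 averaged 24.5 ± 3.59 and 22.1 ± 6.43 CPM in medium, against 13.2 ± 1.68 and 11.7 ± 3.44 CPM in negative, with log2 fold changes of 0.89 and 0.93 (adjusted p = 0.00168 and 0.00488).

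The other 3 tested genes of the list were not called. Ntn1, the chemoattractant netrin 1, had 10.6, 19.3, 18.3 and 13.3 CPM in medium and 14.1, 11.6, 11.3 and 10.2 CPM in negative (log2 fold change 0.39, SE 0.197, adjusted p = 0.265), and the groups overlapped. Slit2 averaged 14.6 ± 4.03 CPM in medium and 10.4 ± 1.93 CPM in negative (adjusted p = 0.205). For Sulf1, a sulfatase that edits heparan sulfate, the values were 74.8, 114, 76.4 and 78.9 CPM in medium and 59.5, 84.2, 77.2 and 62.5 CPM in negative (adjusted p = 0.301). Shh fell under the filter on low counts, at 16 counts over the medium libraries and 7 over the negative ones, and Ferd3l and Corin had at most 2 counts in either group. Foxa1 was not called between medium and high either way, at 6.88 CPM in medium and 9.23 CPM in high (log2 fold change -0.42, adjusted p = 0.822).

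Of 3 tested ventral progenitor factors 2 rose in every fit. Nkx2-9, a homeobox gene expressed beside the floor plate, had 84.2, 104, 69.0 and 71.5 CPM in medium and 21.9, 13.7, 20.0 and 14.7 CPM in negative (log2 fold change 2.23, SE 0.214, adjusted p = 4.36e-07). Its lowest medium library stood well above its highest negative one. Nkx6-1, a repressor of dorsal identities in ventral progenitors, had 6.10, 6.43, 6.74 and 7.65 CPM in medium and 0.162, 2.08, 1.46 and 1.74 CPM in negative (log2 fold change 2.27, SE 0.485, adjusted p = 0.00353). The third tested member, Nkx6-2, averaged 8.12 ± 1.78 CPM in medium and 5.48 ± 1.83 CPM in negative (adjusted p = 0.335). Nkx2-2, Olig1 and Olig2 were not tested, with 10, 8 and 0 counts in medium and 4, 6 and 0 in negative. Over the gates in order of FOXA2, Nkx2-9 averaged 17.6, 35.3, 82.2 and 168 CPM in negative, low, medium and high.

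The 15 largest rises took in genes of varied roles. Igf1, insulin-like growth factor 1, lies on chromosome 10 between 87858265 and 87937042, plus strand (GRCm38). It had 24.4, 29.0, 24.0 and 18.7 CPM in medium and 1.62, 1.56, 2.73 and 0.921 CPM in negative (log2 fold change 3.87, SE 0.275, adjusted p = 5.47e-11). The lowest medium library was several times above the highest negative one. Vtn, the adhesion protein vitronectin, had 12.4, 11.2, 11.8 and 6.37 CPM in medium and 0.810, 1.04, 1.09 and 0.307 CPM in negative (log2 fold change 3.75, SE 0.342, adjusted p = 2.98e-09). Ntng1 encodes netrin-G1, a membrane-anchored relative of the netrins, and lies on chromosome 3 between 109780040 and 110144011, minus strand. Its levels were 28.7, 25.7, 20.4 and 23.5 CPM in medium and 3.08, 1.22, 2.55 and 2.46 CPM in negative (log2 fold change 3.38, SE 0.254, adjusted p = 9.28e-11). Kif26b, an unusual kinesin involved in cell adhesion and polarity, averaged 17.5 ± 2.96 CPM in medium and 2.22 ± 1.12 CPM in negative (log2 fold change 3.03, SE 0.254, adjusted p = 6.38e-10). For these genes the 2 groups were separated by a wide gap, but the rule that chose the 15 admitted only groups that do not overlap.

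Enzymes and a transcription factor were also among these 15. Arg1, the arginase that splits arginine into ornithine and urea, had 53.9, 32.8, 56.2 and 49.4 CPM in medium and 8.26, 3.13, 3.09 and 5.12 CPM in negative (log2 fold change 3.27, SE 0.233, adjusted p = 2.66e-10). Sox17, an SRY-related factor known from endoderm and endothelium, lies on chromosome 1 between 4490931 and 4497354, minus strand. It had 126, 105, 71.2 and 145 CPM in medium and 12.0, 7.99, 11.5 and 15.4 CPM in negative (log2 fold change 3.23, SE 0.203, adjusted p = 2e-10), and medium 3 was the lowest medium library. Khdc3, known in the mouse as an oocyte protein of the subcortical maternal complex, averaged 103 ± 22.2 CPM in medium and 14.1 ± 2.75 CPM in negative (log2 fold change 2.85, SE 0.223, adjusted p = 2.75e-08). Pla2g7, a secreted phospholipase that inactivates platelet-activating factor, had 91.5, 62.2, 106 and 96.6 CPM in medium and 16.5, 26.0, 16.4 and 18.3 CPM in negative (log2 fold change 2.21, SE 0.161, adjusted p = 5.47e-11). Hsd11b2, the enzyme that inactivates glucocorticoids, had 53.3, 64.0, 31.5 and 29.5 CPM in medium, a wide spread, and 12.3, 6.60, 11.3 and 8.6004 CPM in negative (log2 fold change 2.20, SE 0.28, adjusted p = 3.5e-05). Igfbp5, Sp5, Bmp4, Smoc2 and Nkx2-9 were among the 15 too and are given with their groups.

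**Figure D2:**
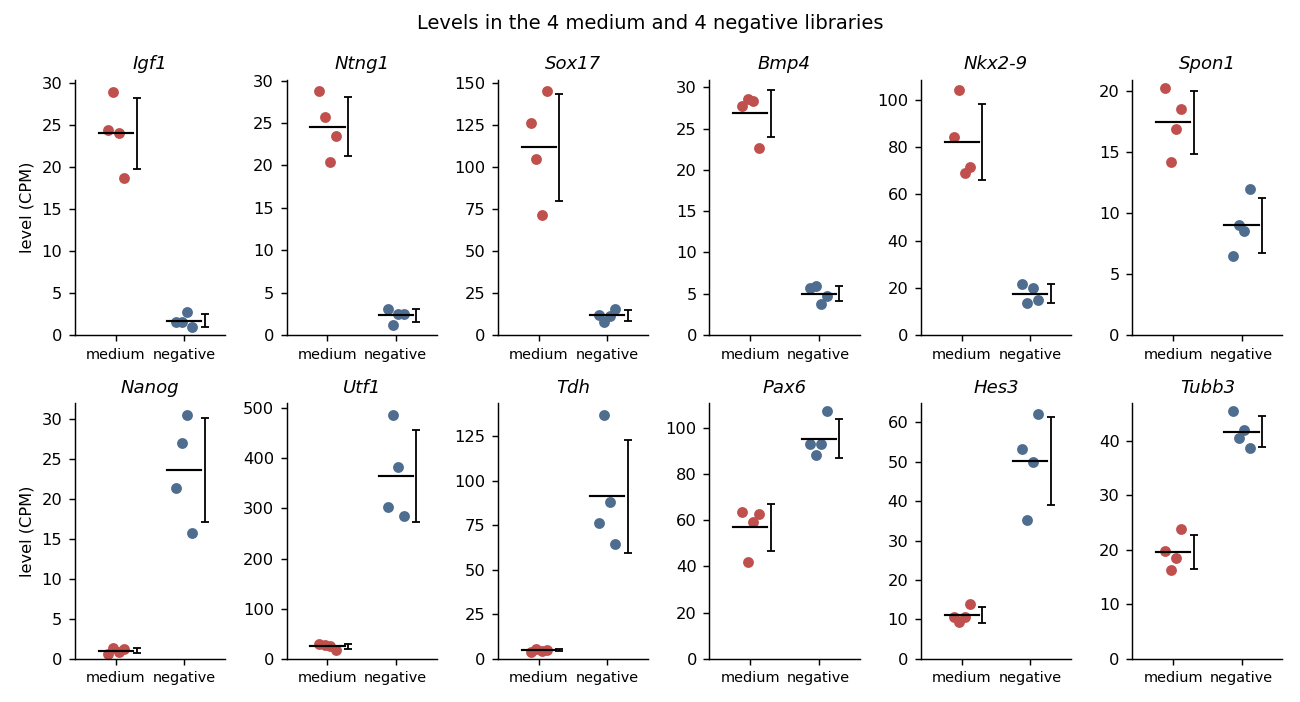
Levels of 12 genes in CPM in each medium (red, left) and negative (blue, right) library, with the mean as a line and the SD as a bar (n = 4 each). Igf1, Ntng1, Sox17, Bmp4, Nkx2-9 and Spon1 in the upper row lay higher in all 4 medium libraries, and Nanog, Utf1, Tdh, Pax6, Hes3 and Tubb3 in the lower row lay lower in all 4.

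Of 16 tested genes of the pluripotent state, 12 fell in every fit and 0 rose, with a median log2 fold change of -2.71. The list's summed level ran from 629 to 1017 CPM in medium and from 1232 to 1633 CPM in negative. Much of the sum in medium came from Lin28a, which was not called and is given below. Nanog, a homeobox factor at the core of the stem cell network, lies on chromosome 6 between 122707489 and 122714633, plus strand. It had 0.590, 1.32, 0.864 and 1.27 CPM in medium and 21.4, 26.9, 30.4 and 15.7 CPM in negative (log2 fold change -4.48, SE 0.523, adjusted p = 8.8e-06). Utf1, a chromatin protein of embryonic stem cells, had 28.7, 27.4, 26.4 and 17.4 CPM in medium and 303, 486, 383 and 284 CPM in negative (log2 fold change -3.87, SE 0.255, adjusted p = 3.14e-08). Tdh is the threonine dehydrogenase on which mouse embryonic stem cells rely. It had 3.94, 5.28, 4.67 and 4.96 CPM in medium, within a narrow range, and 76.3, 137, 88.1 and 64.5 CPM in negative (log2 fold change -4.26, SE 0.298, adjusted p = 4.27e-09). L1td1, an RNA-binding protein derived from a LINE-1 element, averaged 8.28 ± 2.44 CPM in medium and 115 ± 39.3 CPM in negative (log2 fold change -3.79, SE 0.396, adjusted p = 2.2e-05). In each of these genes the negative library with the lowest level was still several times above the highest medium library.

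The remaining pluripotency genes that fell included Klf2 (1.504 ± 0.501 CPM in medium and 21.7 ± 5.90 CPM in negative, log2 fold change -3.85, SE 0.315, adjusted p = 4.47e-10), a Krüppel-like factor of naive stem cells. Zfp42, or Rex1, a zinc finger marker of naive cells, had 5.31, 10.7, 9.68 and 5.52 CPM in medium and 50.9, 66.3, 88.1 and 46.2 CPM in negative (log2 fold change -3.001, SE 0.294, adjusted p = 7.36e-07). Dppa2 averaged 2.14 ± 0.981 CPM in medium and 20.1 ± 5.03 CPM in negative, Dppa5a 23.5 ± 3.63 CPM in medium and 114 ± 20.7 CPM in negative, and Esrrb 1.40 ± 0.809 CPM in medium and 7.72 ± 0.341 CPM in negative. Dppa3, an oocyte and primordial germ cell protein, had 3 counts over the 4 medium libraries and 195 over the 4 negative ones. Pou5f1, which encodes OCT4, was not tested, being at 2 counts in medium and 64 in negative, and so were Fgf4 (3 in medium and 98 in negative) and Tcl1 (1 in medium and 27 in negative). Lin28a, an RNA-binding protein shared by stem cells and early neural progenitors, was not called, with 381, 623, 361 and 429 CPM in medium and 319, 314, 371 and 390.0 CPM in negative (log2 fold change 0.36, SE 0.249, adjusted p = 0.467). The Lin28a values of the 2 groups overlapped.

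Genes with the largest falls outside that list have varied roles. Morc1, a germline silencer of transposons, averaged 0.845 ± 0.215 CPM in medium and 18.2 ± 4.59 CPM in negative (log2 fold change -4.41, SE 0.401, adjusted p = 2.76e-09). Mylpf, a fast muscle myosin light chain, had 8.07, 3.96, 5.53 and 5.24 CPM in medium and 64.3, 76.9, 68.6 and 58.7 CPM in negative (log2 fold change -3.57, SE 0.259, adjusted p = 5.03e-10). Calcoco2 (NDP52, an autophagy receptor) averaged 2.26 ± 0.323 CPM in medium and 26.5 ± 8.23 CPM in negative, and Lgals3 (the lectin galectin 3) 1.182 ± 0.871 CPM in medium and 15.9 ± 6.01 CPM in negative. Aoah, a lipase that detoxifies bacterial lipopolysaccharide, averaged 1.23 ± 0.538 CPM in medium and 17.2 ± 4.80 CPM in negative, and Gtsf1l and Esyt3 averaged 1.85 ± 0.401 and 2.33 ± 0.989 CPM in medium and 20.0 ± 5.50 and 23.5 ± 8.09 CPM in negative. The noncoding RNA Platr10, one of the transcripts named for their link to pluripotency, had 8 counts in medium and 275 in negative. Log2 fold changes of this group lay between -3.34 for Esyt3 and -4.88 for Platr10. Their medium and negative libraries did not overlap, which the rule that chose these genes required.

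The Nodal pathway, the TGF-beta branch that holds the epiblast open to mesoderm and endoderm, was lower at some of its members. Of 10 tested genes 4 fell in every fit and 0 rose. The ligand Nodal had 0.394, 0.165, 1.21 and 0.850 CPM in medium and 8.10, 6.60, 8.01 and 2.35 CPM in negative (log2 fold change -3.18, SE 0.527, adjusted p = 9.13e-05). Tdgf1, the co-receptor Cripto, had 2 counts over all medium libraries and 274 over the negative ones. Gdf3, a ligand that works with Nodal, averaged 2.01 ± 1.34 CPM in medium and 22.1 ± 4.22 CPM in negative (log2 fold change -3.44, SE 0.391, adjusted p = 1.05e-06), and Foxh1, the DNA-binding partner of the SMADs that carry the signal, 17.5 ± 2.98 CPM in medium and 34.97 ± 5.18 CPM in negative (log2 fold change -0.998, SE 0.183, adjusted p = 0.000348). Lefty1, a secreted inhibitor that Nodal itself induces, had 17.5, 60.9, 20.4 and 16.1 CPM in medium and 84.2, 142, 95.9 and 83.0 CPM in negative. It was not called in the full fit (log2 fold change -1.81, SE 0.548, adjusted p = 0.0641), and without medium 2, the medium library with the highest value, its log2 fold change was -2.48 (adjusted p = 0.0132). Lefty2 was not tested and had 5 counts in medium and 60 in negative. The receptor Acvr2b averaged 91.3 ± 17.5 CPM in medium and 81.1 ± 7.01 CPM in negative (adjusted p = 0.493).

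Of 7 genes of the epiblast after implantation, Dnmt3l and Otx2 fell and Epcam rose. Dnmt3l, a cofactor of the DNA methyltransferases, had 2.95, 3.298, 3.28 and 2.55 CPM in medium and 22.7, 30.6, 28.4 and 15.5 CPM in negative (log2 fold change -2.99, SE 0.269, adjusted p = 2.18e-09). Otx2, a homeobox factor of the epiblast and of the anterior neural plate, had 4 counts in medium and 101 in negative. Epcam, an epithelial adhesion protein, averaged 135 ± 33.2 CPM in medium and 83.4 ± 9.96 CPM in negative (log2 fold change 0.70, SE 0.131, adjusted p = 0.000463).

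To show sequence beside these groups, the 250 bases before the start of each gene were taken from RefSeq (GRCm38.p6), the build of the counts, and searched on both strands for the letters TGTTTAC, a core that forkhead factors bind, and ATGCAAA, part of the octamer bound by POU factors such as OCT4. A window was found for 10467 of the 13891 genes tested and for 32 of 46 genes taken by the rule of largest and most abundant changes. The groups searched were the 589 higher and 586 lower genes of the full fit, of which 438 and 412 had a window. TGTTTAC was in a window of 17 of 438 higher genes (3.88%), 12 of 412 lower genes (2.91%) and 267 of all 10467 genes (2.55%). ATGCAAA was in a window of 18 of 438 higher genes (4.11%), 28 of 412 lower genes (6.8%) and 408 of all genes (3.9%). These are counts of letters, with no test; windows of 1 gene can overlap, and a match does not show that a factor binds. The sequences below are those with the largest changes among genes called in every fit, with the matched letters in capitals. The first 2 are of genes higher in medium with forkhead letters. Cpn1, a subunit of a plasma carboxypeptidase, lies on chromosome 19 (window chr19:43986521-43986770, minus strand), and Apela, a secreted peptide that signals through the apelin receptor, on chromosome 8 (chr8:65037337-65037586, minus strand), where the capitals are the reverse complement.
Cpn1: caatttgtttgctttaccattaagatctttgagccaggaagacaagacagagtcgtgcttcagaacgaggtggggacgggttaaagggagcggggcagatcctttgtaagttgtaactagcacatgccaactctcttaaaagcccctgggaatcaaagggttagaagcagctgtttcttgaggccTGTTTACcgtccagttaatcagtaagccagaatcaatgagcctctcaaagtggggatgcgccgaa
Apela: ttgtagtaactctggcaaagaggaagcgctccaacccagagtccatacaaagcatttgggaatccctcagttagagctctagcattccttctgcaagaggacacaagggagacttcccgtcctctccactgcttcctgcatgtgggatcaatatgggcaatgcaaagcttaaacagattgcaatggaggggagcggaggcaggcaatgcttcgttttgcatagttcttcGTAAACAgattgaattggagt
The next 4 are of genes lower in medium with octamer letters: Nanog (chr6:122707239-122707488, plus strand), Zfp42 (chr8:43307010-43307259, minus strand), Zfp296, a zinc finger gene of stem cells (chr7:19577037-19577286, plus strand), and Pim2, which encodes a survival kinase (chrX:7878056-7878305, plus strand, 3 matches).
Nanog: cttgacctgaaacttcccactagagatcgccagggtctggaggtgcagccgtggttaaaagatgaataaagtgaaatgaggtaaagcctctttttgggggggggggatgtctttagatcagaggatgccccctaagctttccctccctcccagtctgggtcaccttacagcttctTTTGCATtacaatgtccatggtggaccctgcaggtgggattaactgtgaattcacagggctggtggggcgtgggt
Zfp42: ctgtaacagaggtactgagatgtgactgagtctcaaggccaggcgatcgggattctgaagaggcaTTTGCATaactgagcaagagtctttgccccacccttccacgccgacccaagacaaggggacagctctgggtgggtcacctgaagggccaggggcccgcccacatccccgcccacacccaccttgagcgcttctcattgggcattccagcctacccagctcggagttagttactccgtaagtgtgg
Zfp296: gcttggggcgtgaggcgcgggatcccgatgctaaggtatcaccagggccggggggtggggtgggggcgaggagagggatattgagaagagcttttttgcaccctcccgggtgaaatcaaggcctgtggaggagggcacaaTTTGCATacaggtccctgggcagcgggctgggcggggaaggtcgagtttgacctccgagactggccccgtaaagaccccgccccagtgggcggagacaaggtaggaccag
Pim2: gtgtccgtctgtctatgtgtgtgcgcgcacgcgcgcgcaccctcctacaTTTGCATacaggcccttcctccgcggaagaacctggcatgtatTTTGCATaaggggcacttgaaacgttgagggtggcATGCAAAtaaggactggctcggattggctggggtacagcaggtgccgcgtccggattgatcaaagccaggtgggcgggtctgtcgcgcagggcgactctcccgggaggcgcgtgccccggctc
Cpn1 had 48.8, 28.7, 71.2 and 55.5 CPM in medium and 16.5, 9.72, 12.4 and 13.6 CPM in negative (log2 fold change 1.96, SE 0.221, adjusted p = 1.47e-06). Apela averaged 27.5 ± 4.58 CPM in medium and 8.80 ± 1.75 CPM in negative (log2 fold change 1.65, SE 0.191, adjusted p = 2.83e-07), and its window also holds the octamer letters, not capitalised here. Zfp296 averaged 2.43 ± 1.59 CPM in medium and 17.9 ± 5.59 CPM in negative (log2 fold change -2.89, SE 0.414, adjusted p = 3.21e-05). Pim2 had 9.05, 12.5, 11.8 and 12.7 CPM in medium and 58.2, 113, 57.9 and 54.9 CPM in negative (log2 fold change -2.61, SE 0.238, adjusted p = 5.52e-08).

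Of 16 tested genes listed for intermediate and dorsal levels of the neural tube, 5 fell in every fit and 0 rose, with a median log2 fold change of -0.51. The 5 include Gbx2, a factor of the anterior hindbrain and not of a dorsal level as such. Pax6, a paired-box factor of intermediate progenitors, had 63.8, 41.7, 59.3 and 62.7 CPM in medium and 93.1, 88.2, 92.8 and 107 CPM in negative (log2 fold change -0.75, SE 0.131, adjusted p = 0.000203). Pax3, its dorsal relative, had 14.2, 7.42, 14.3 and 9.205 CPM in medium and 35.3, 28.0, 32.8 and 39.1 CPM in negative (log2 fold change -1.59, SE 0.249, adjusted p = 9.39e-05). Zic1, a zinc finger factor of the dorsal tube, averaged 11.9 ± 2.71 CPM in medium and 22.5 ± 4.17 CPM in negative (log2 fold change -0.92, SE 0.192, adjusted p = 0.0017), and Gbx2, a homeobox factor of the anterior hindbrain, 21.2 ± 5.43 CPM in medium and 34.3 ± 1.22 CPM in negative (log2 fold change -0.70, SE 0.162, adjusted p = 0.00431). Dbx1, which marks progenitors of intermediate interneurons, averaged 0.562 ± 0.236 CPM in medium and 2.90 ± 1.36 CPM in negative (log2 fold change -2.29, SE 0.544, adjusted p = 0.00546). None of the 5 overlapped between groups. Pax6 remained well above its level in the high gate, at 56.9 CPM in medium and 23.7 CPM in high (log2 fold change 1.26, adjusted p = 3.64e-06), and so did Zic1 (log2 fold change 1.33, adjusted p = 0.00119).

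General neural progenitor genes moved in part. Of 16 tested, 3 fell in every fit and 1 rose, with a median log2 fold change of -0.33. Hes3, a repressor that keeps early neuroepithelial cells dividing, had 10.6, 9.40, 10.54 and 13.9 CPM in medium and 53.3, 35.2, 50.05 and 62.1 CPM in negative (log2 fold change -2.17, SE 0.191, adjusted p = 1.44e-09). Hes5, a Notch target in neural progenitors, had 58.5, 45.4, 51.5 and 62.2 CPM in medium and 79.7, 119, 86.4 and 86.3 CPM in negative (log2 fold change -0.77, SE 0.142, adjusted p = 0.00038). Ncam1, the neural cell adhesion molecule, averaged 20.3 ± 2.06 CPM in medium and 35.3 ± 4.97 CPM in negative (log2 fold change -0.80, SE 0.184, adjusted p = 0.004). Ptprz1, a receptor phosphatase of radial glia, was the member that rose (19.7 ± 2.34 CPM in medium, 11.6 ± 2.21 CPM in negative, log2 fold change 0.76, SE 0.172, adjusted p = 0.00357). Vim, Cdh2 and Rfx4 were not called, with adjusted p of 0.706, 0.495 and 0.384. Their means were 200.1, 108 and 37.9 CPM in medium and 225, 119.6 and 45.6 CPM in negative.

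Of 10 tested proneural and neuron genes 4 fell in every fit and 0 rose. Stmn2, a regulator of microtubules in growing axons, had 36.0, 41.2, 45.6 and 36.3 CPM in medium and 90.2, 163, 108 and 81.6 CPM in negative (log2 fold change -1.47, SE 0.206, adjusted p = 5.33e-05). Tubb3, the neuronal beta-tubulin, had 19.7, 16.3, 18.5 and 23.8 CPM in medium and 45.4, 40.5, 41.9 and 38.7 CPM in negative (log2 fold change -1.08, SE 0.155, adjusted p = 1.16e-05). The proneural factor Neurog1 was low throughout, at 0.513 ± 0.701 CPM in medium and 5.70 ± 2.64 CPM in negative, and fell (log2 fold change -3.37, SE 0.695, adjusted p = 0.00176). The summed level of the list was 94.5 to 106 CPM in medium and 190.3 to 273 CPM in negative, with no overlap.

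Position along the body axis was read from the Hox genes, which mark hindbrain and spinal levels, and from COUP-TF, Meis and Pbx factors. Of 14 tested Hox genes 1 fell in every fit and 0 rose, against 2.27% of all genes that fell. Hoxa2, the most anterior Hox gene of the hindbrain, had 23.0, 28.7, 25.8 and 38.8 CPM in medium and 42.6, 46.4, 51.7 and 46.1 CPM in negative (log2 fold change -0.68, SE 0.159, adjusted p = 0.00514). Hoxb1 averaged 74.8 ± 9.48 CPM in medium and 82.9 ± 19.3 CPM in negative (adjusted p = 0.648). Nr2f1, which encodes COUP-TFI, a nuclear receptor induced by retinoic acid, had 11.6, 15.2, 8.12 and 13.7 CPM in medium and 38.1, 32.3, 36.9 and 27.1 CPM in negative (log2 fold change -1.46, SE 0.193, adjusted p = 3.29e-06), and its relative Nr2f2 72.2 ± 21.6 CPM in medium and 62.6 ± 12.0 CPM in negative (adjusted p = 0.484). Meis2 was not called: it had 586, 694, 515 and 471 CPM in medium and 33902, 519, 474 and 387 CPM in negative, where negative 1 stood far above every other library. With all libraries its log2 fold change was -3.96 (adjusted p = 0.087), and leaving out negative 1 gave 0.30 (adjusted p = 0.366).

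**Figure D3:**
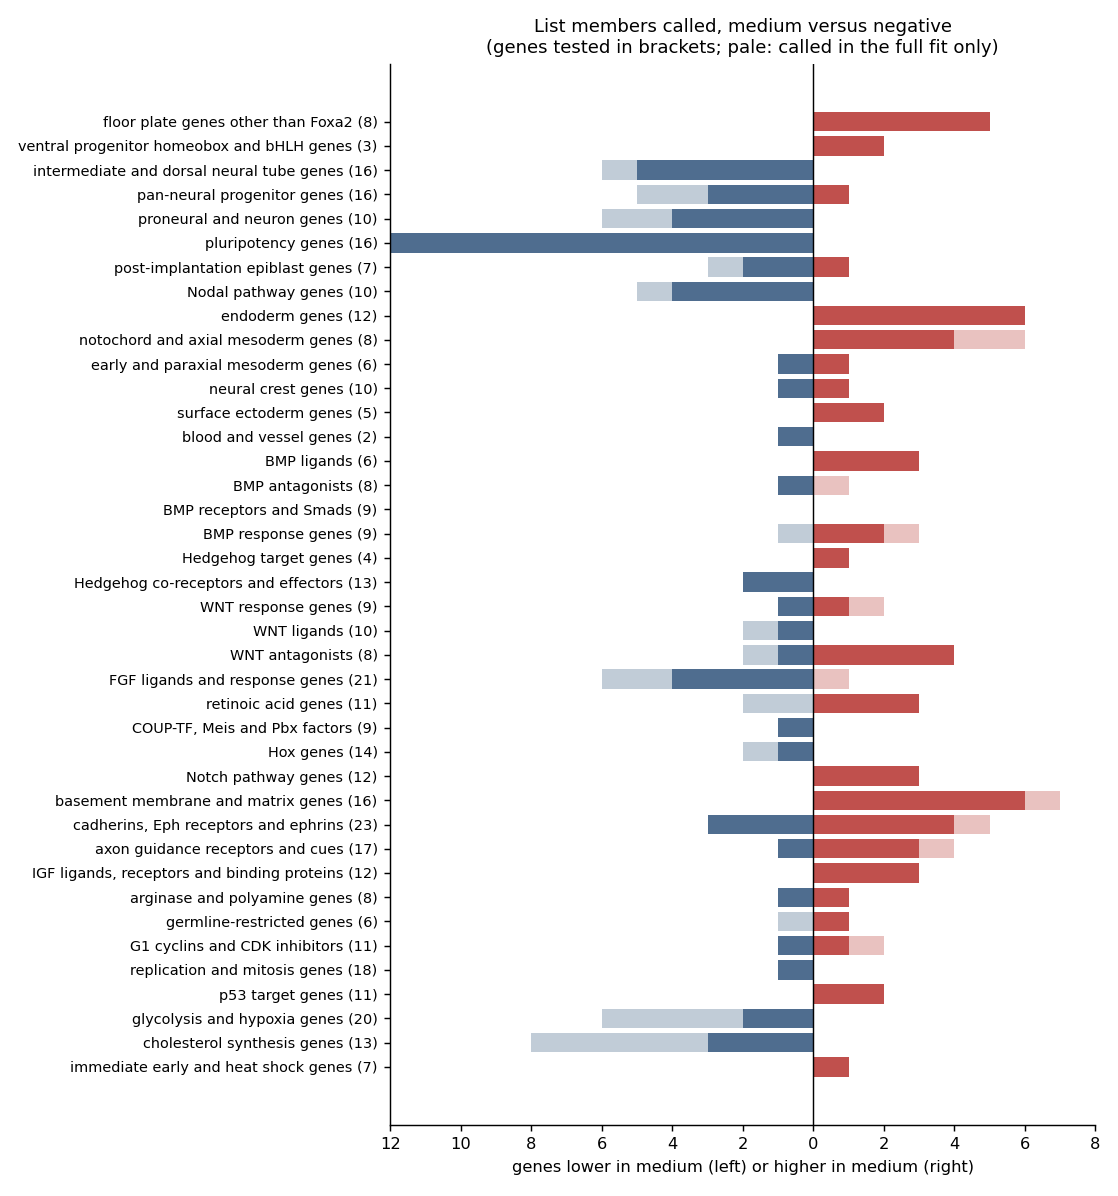
Number of tested members of each gene list that were lower in medium (bars to the left) or higher in medium (bars to the right), with the genes tested in brackets. Solid bars were called in every fit and pale bars in the full fit only; the pluripotency list had 12 of 16 lower and the endoderm and matrix lists 6 higher each.

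BMP signalling, whose ligands pattern the dorsal neural tube and are opposed by antagonists such as noggin and follistatin, was higher at some of its ligands in medium. Of 6 tested ligands 3 rose in every fit and 0 fell. Bmp4 lies on chromosome 14 between 46383520 and 46390669, minus strand and had 27.8, 28.5, 28.3 and 22.7 CPM in medium and 5.67, 5.90, 3.82 and 4.71 CPM in negative (log2 fold change 2.41, SE 0.226, adjusted p = 4.94e-09). Bmp7 had 68.7, 82.5, 65.2 and 79.7 CPM in medium and 29.3, 25.3, 34.8 and 38.2 CPM in negative (log2 fold change 1.21, SE 0.134, adjusted p = 1.31e-07). For both the lowest medium library was well above the highest negative one. Bmp3, an atypical member that opposes BMP signals, had 32 counts in medium and 2 in negative. Of 8 tested antagonists 1 fell in every fit, Fst, which encodes follistatin, with 6.10, 6.76, 2.94 and 4.96 CPM in medium and 16.4, 31.3, 14.7 and 9.42 CPM in negative (log2 fold change -1.77, SE 0.328, adjusted p = 0.000758). In the full fit only, 1 other antagonist passed with a higher level in medium. The antagonist Cer1 was not tested, at 8 counts in medium and 0 in negative. Fstl1 averaged 133 ± 15.6 CPM in medium and 115 ± 16.0 CPM in negative (adjusted p = 0.352), and Nog was not tested, at 6 counts in medium and 11 in negative.

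No receptor or Smad of the BMP pathway was called in edgeR's test or in DESeq2, of 9 tested, and 2 were higher and 0 lower at an unadjusted p under 0.05. Bmpr1a averaged 44.7 ± 11.7 CPM in medium and 47.1 ± 5.79 CPM in negative (adjusted p = 0.854). Among 9 tested response genes 2 rose in every fit and 0 fell, while 1 passed with a higher and 1 with a lower level in the full fit only. Atoh8, a bHLH gene induced by BMP in several cell types, had 19.7, 14.8, 10.0 and 12.6 CPM in medium and 2.92, 4.17, 4.37 and 2.76 CPM in negative (log2 fold change 2.02, SE 0.271, adjusted p = 3.89e-06). Msx1, a homeobox target of BMP in the dorsal tube, averaged 112 ± 15.9 CPM in medium and 62.0 ± 10.9 CPM in negative (log2 fold change 0.85, SE 0.147, adjusted p = 0.000204). The direct targets Id1 and Id3 were not called. Id1 had 78.3, 85.9, 54.6 and 78.2 CPM in medium and 73.9, 74.7, 64.4 and 91.2 CPM in negative (log2 fold change -0.04, SE 0.176, adjusted p = 0.937), and Id3 averaged 485 ± 86.7 CPM in medium and 460.2 ± 82.5 CPM in negative (adjusted p = 0.832). The values of both groups overlapped for Id1 and Id3.

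Hedgehog signalling acts through the receptor PTCH1, which the pathway itself induces, and through the GLI factors. Of 4 tested targets Ptch1 rose, with 56.1, 99.1, 53.1 and 57.8 CPM in medium and 32.7, 26.9, 30.4 and 24.6 CPM in negative (log2 fold change 1.22, SE 0.194, adjusted p = 0.00016). Medium 2 was the highest library, and without it the log2 fold change was 0.97 (adjusted p = 8.29e-05). Gli1, a direct target, had 14.2, 16.8, 13.1 and 11.3 CPM in medium and 21.2, 11.3, 15.5 and 7.99 CPM in negative (log2 fold change 0.00, SE 0.206, adjusted p = 0.999), so the means were alike and the groups overlapped. Hhip, an inhibitor that binds the ligand, had 5.51, 9.40, 6.40 and 6.66 CPM in medium and 6.48, 0.174, 3.64 and 1.84 CPM in negative (log2 fold change 1.22, SE 0.462, adjusted p = 0.119), and leaving out negative 1 gave 1.90 (adjusted p = 0.0055). Among the co-receptors and effectors, 2 of 13 fell in every fit. Boc, a co-receptor that the pathway represses, had 20.1, 22.3, 29.2 and 28.6 CPM in medium and 47.5, 35.6, 45.9 and 50.5 CPM in negative (log2 fold change -0.84, SE 0.18, adjusted p = 0.00216), and Scube2, which helps release the ligand, averaged 2.52 ± 0.790 CPM in medium and 7.44 ± 1.33 CPM in negative (log2 fold change -1.54, SE 0.342, adjusted p = 0.00282). Boc was also lower in medium than in low (log2 fold change -1.07, adjusted p = 0.001) and higher in medium than in high (log2 fold change 1.22, adjusted p = 0.00096).

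**Figure D4:**
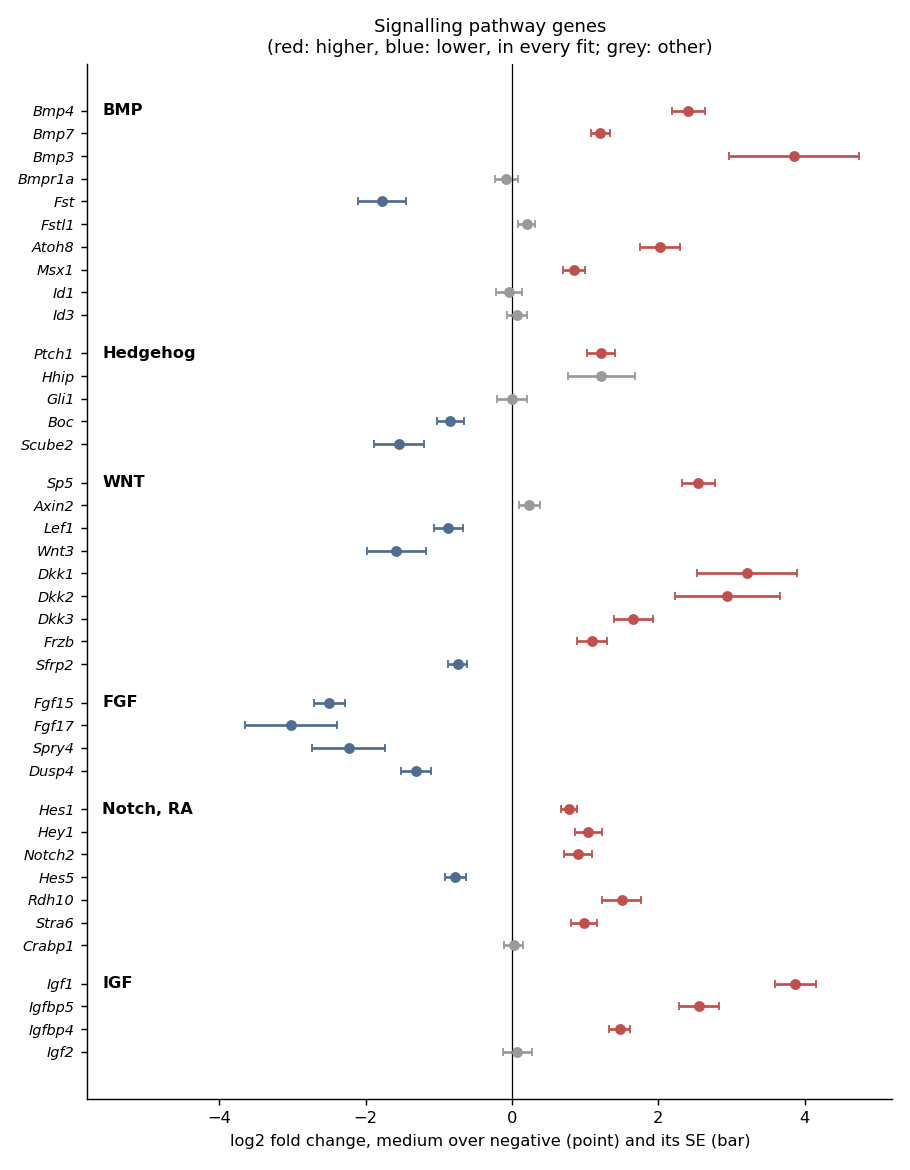
Log2 fold change of medium over negative (points) with its standard error (bars) for genes of the BMP, Hedgehog, WNT, FGF, Notch, retinoic acid and IGF groups. Red genes were higher and blue genes lower in every fit, and grey genes, such as Id1, Gli1, Axin2, Crabp1 and Igf2, were not called in the full fit.

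WNT genes moved in both directions. Of 9 tested response genes Sp5 rose and Lef1 fell in every fit. Sp5, a zinc finger gene that beta-catenin activates directly, had 62.6, 63.2, 48.2 and 67.5 CPM in medium and 11.2, 5.21, 10.9 and 13.3 CPM in negative (log2 fold change 2.55, SE 0.228, adjusted p = 8.26e-08). Lef1, a DNA-binding partner of beta-catenin, had 22.8, 34.0, 17.1 and 19.1 CPM in medium and 36.0, 57.6, 42.0 and 34.5 CPM in negative (log2 fold change -0.87, SE 0.192, adjusted p = 0.0031), and the groups came close. Axin2, often used as a general readout of the pathway, averaged 45.3 ± 6.46 CPM in medium and 38.4 ± 5.26 CPM in negative (adjusted p = 0.379). Of 10 tested ligands Wnt3 fell, with 1.77, 1.48, 5.53 and 0.991 CPM in medium and 8.59, 6.08, 7.28 and 7.06 CPM in negative (log2 fold change -1.58, SE 0.401, adjusted p = 0.01). Of 8 tested secreted antagonists 4 rose in every fit and 1 fell, beside 2.35% and 2.27% of all genes. The summed level of this list went the other way, at 174 to 218 CPM in medium and 246 to 307 CPM in negative. Dkk3 had 9.05, 9.89, 8.64 and 10.2 CPM in medium and 4.37, 2.43, 2.37 and 2.76 CPM in negative (log2 fold change 1.66, SE 0.269, adjusted p = 6.83e-05), and Frzb, which binds WNT ligands, averaged 23.3 ± 5.10 CPM in medium and 11.1 ± 3.44 CPM in negative (log2 fold change 1.09, SE 0.207, adjusted p = 0.000539). Dkk1 and Dkk2 were scarce, with 43 and 43 counts over the medium libraries and 5 and 6 over the negative ones. Sfrp2, a related soluble WNT-binding protein, had 70.5, 56.7, 57.2 and 79.7 CPM in medium and 97.0, 138, 104 and 103 CPM in negative (log2 fold change -0.74, SE 0.13, adjusted p = 0.000204).

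FGF ligands and response genes fell in 4 of 21 cases and rose in 0, counted over every fit. A further 2 genes passed with a lower and 1 with a higher level in the full fit only. Fgf15, a ligand expressed in the early neural tube, had 7.68, 6.43, 7.26 and 7.08 CPM in medium and 34.5, 46.9, 34.9 and 43.8 CPM in negative (log2 fold change -2.49, SE 0.212, adjusted p = 7.43e-10). Fgf17, a ligand of the midbrain and hindbrain border, averaged 0.750 ± 0.820 CPM in medium and 6.32 ± 2.999 CPM in negative (log2 fold change -3.02, SE 0.631, adjusted p = 0.00191). Spry4 and Dusp4 are inhibitors that the pathway itself induces. Spry4 averaged 1.21 ± 0.774 CPM in medium and 5.65 ± 2.18 CPM in negative (log2 fold change -2.23, SE 0.498, adjusted p = 0.0031), and Dusp4 had 19.5, 11.5, 12.6 and 17.3 CPM in medium and 34.7, 52.3, 31.1 and 32.6 CPM in negative (log2 fold change -1.30, SE 0.204, adjusted p = 4.88e-05). Fgf15 lay at 40.0, 21.7, 7.11 and 2.73 CPM in the negative, low, medium and high gates.

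Retinoic acid genes bear on the agent that all libraries received. Of 11 tested, 3 rose in every fit and 0 fell, while 2 others passed with a lower level in the full fit only. Rdh10, the enzyme that makes retinaldehyde, had 8.27, 10.4, 11.4 and 11.2 CPM in medium and 2.11, 3.299, 4.91 and 4.20 CPM in negative (log2 fold change 1.4999, SE 0.269, adjusted p = 0.000265). Stra6, the membrane receptor that takes up retinol, averaged 34.1 ± 5.99 CPM in medium and 17.2 ± 4.28 CPM in negative (log2 fold change 0.98, SE 0.178, adjusted p = 0.000296). Crabp1, which binds retinoic acid in the cytoplasm, was not called, with 4915, 6699, 5466 and 5261 CPM in medium and 5194, 7189, 4462 and 5087 CPM in negative (log2 fold change 0.03, SE 0.131, adjusted p = 0.94). It was higher in medium than in high, at 5585 CPM in medium and 2751 CPM in high (log2 fold change 1.02, adjusted p = 0.000145). In the Notch pathway, through which neighbouring cells hold each other in the progenitor state, 3 of 12 tested genes rose and 0 fell in every fit. Hes1, a Notch target of boundary and floor plate cells, had 158, 164, 171 and 146 CPM in medium and 94.8, 93.1, 84.6 and 98.6 CPM in negative (log2 fold change 0.78, SE 0.107, adjusted p = 5.54e-06). Hey1 averaged 19.2 ± 3.95 CPM in medium and 9.34 ± 1.43 CPM in negative (log2 fold change 1.04, SE 0.183, adjusted p = 0.000204), and the receptor Notch2 31.4 ± 5.79 CPM in medium and 16.8 ± 1.37 CPM in negative (log2 fold change 0.91, SE 0.195, adjusted p = 0.00223). Hes1 and Hes5, both targets of the pathway, thus moved in opposite directions.

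The insulin-like growth factor system rose at the ligand and at 2 binding proteins, 3 of 12 tested genes, with 0 lower. Igfbp5 had 336, 490.1, 237 and 274 CPM in medium and 60.3, 84.2, 43.3 and 41.2 CPM in negative (log2 fold change 2.55, SE 0.273, adjusted p = 2.77e-05), with medium 2 the highest. Igfbp4 had 97.0, 123.2, 78.3 and 82.1 CPM in medium and 32.4, 35.8, 34.2 and 34.4 CPM in negative (log2 fold change 1.48, SE 0.144, adjusted p = 1.23e-08). Igf2, the fetal ligand, averaged 109.8 ± 23.3 CPM in medium and 105 ± 25.2 CPM in negative (adjusted p = 0.893). In arginine and polyamine metabolism, 1 of 8 tested genes rose and 1 fell. The riser was Arg1, given above. Sms, the spermine synthase, had 82.3, 94.7, 68.6 and 65.7 CPM in medium and 132, 129, 138 and 116 CPM in negative (log2 fold change -0.73, SE 0.133, adjusted p = 0.000335), and Oaz1, the ornithine decarboxylase antizyme, averaged 1518 ± 435 CPM in medium and 1486 ± 57.8 CPM in negative (adjusted p = 0.94).

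Several genes of the basement membrane and matrix were higher in medium. Of 16 tested 6 rose in every fit and 0 fell, and the summed level was 1181 to 1423 CPM in medium and 832 to 939 CPM in negative. Col4a1 and Col4a2 encode the chains of the main type IV collagen of basement membranes. Col4a1 had 78.3, 103, 86.8 and 73.8 CPM in medium and 22.5, 18.9, 24.0 and 17.7 CPM in negative (log2 fold change 2.04, SE 0.147, adjusted p = 5.47e-11), and Col4a2 averaged 60.4 ± 7.34 CPM in medium and 21.5 ± 2.01 CPM in negative (log2 fold change 1.495, SE 0.13, adjusted p = 1.35e-09). The laminin chain gene Lamb1 averaged 57.5 ± 5.19 CPM in medium and 29.8 ± 2.85 CPM in negative (log2 fold change 0.95, SE 0.141, adjusted p = 1.95e-05). Smoc1 and Smoc2, a pair of secreted calcium-binding matrix proteins, both rose: Smoc1 to 135 ± 15.4 CPM in medium, against 50.7 ± 3.92 CPM in negative (log2 fold change 1.41, SE 0.113, adjusted p = 2.99e-10), and Smoc2 to 20.95 ± 4.07 CPM in medium, against 4.10 ± 0.684 CPM in negative (log2 fold change 2.37, SE 0.201, adjusted p = 7.27e-10). Col18a1, the source of endostatin, had 569, 514, 522 and 478 CPM in medium and 398, 354, 386 and 386 CPM in negative (log2 fold change 0.45, SE 0.0876, adjusted p = 0.000692), a small difference with tight groups.

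Among 23 tested cadherins, Eph receptors and ephrins, 4 rose and 3 fell in every fit. Cdh11, a mesenchymal cadherin, had 8.46, 7.09, 7.09 and 7.22 CPM in medium and 2.43, 2.60, 2.18 and 2.66 CPM in negative (log2 fold change 1.58, SE 0.293, adjusted p = 0.000417). Ephb3, a receptor for B-class ephrins, averaged 43.3 ± 3.54 CPM in medium and 17.9 ± 3.37 CPM in negative (log2 fold change 1.27, SE 0.165, adjusted p = 2.4e-06), and Efna4, an A-class ephrin, 51.2 ± 4.98 CPM in medium and 30.6 ± 5.90 CPM in negative (log2 fold change 0.75, SE 0.136, adjusted p = 0.000322). Epha7, an Eph receptor of the developing brain, had 16.3, 22.8, 18.1 and 17.7 CPM in medium and 35.2, 60.4, 43.9 and 35.8 CPM in negative (log2 fold change -1.22, SE 0.184, adjusted p = 2.49e-05). Epha2, expressed in embryonic stem cells, averaged 1.46 ± 0.526 CPM in medium and 10.6 ± 6.07 CPM in negative (log2 fold change -2.82, SE 0.43, adjusted p = 2.8e-05), and the protocadherin Pcdh19 0.8293 ± 0.244 CPM in medium and 3.09 ± 0.777 CPM in negative (log2 fold change -1.85, SE 0.488, adjusted p = 0.0133). Of 17 guidance genes 3 rose and 1 fell in every fit. Ntng1, given above, was among them. Nrp1, a co-receptor of semaphorins and VEGF, had 34.2, 37.9, 31.5 and 20.96 CPM in medium and 9.88, 5.04, 12.2 and 9.01 CPM in negative (log2 fold change 1.78, SE 0.228, adjusted p = 4.05e-06), and Sema3d, a secreted semaphorin, averaged 3.01 ± 0.426 CPM in medium and 0.804 ± 0.207 CPM in negative (log2 fold change 1.91, SE 0.473, adjusted p = 0.00807). Dcc, the receptor through which axons read netrin 1, fell to 2.75 ± 1.15 CPM in medium, against 7.56 ± 2.63 CPM in negative (log2 fold change -1.44, SE 0.342, adjusted p = 0.00563).

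Some markers of other FOXA2-bearing tissues were higher in medium too. In the endoderm list 6 of 12 tested genes rose in every fit and 0 fell, with a summed level of 275 to 365 CPM in medium and 108 to 141 CPM in negative. Sox17, given above, was among them. The claudin gene Cldn6 had 108, 93.0, 101 and 98.0 CPM in medium and 33.7, 36.6, 33.9 and 25.2 CPM in negative (log2 fold change 1.63, SE 0.12, adjusted p = 5.47e-11), Cldn7 averaged 61.9 ± 17.3 CPM in medium and 28.7 ± 2.64 CPM in negative (log2 fold change 1.11, SE 0.166, adjusted p = 2.66e-05), and Dab2, an endocytic adaptor of the visceral endoderm, 31.4 ± 6.47 CPM in medium and 13.9 ± 6.25 CPM in negative (log2 fold change 1.182, SE 0.228, adjusted p = 0.000997). Ttr, the serum carrier transthyretin, had 61 counts in medium and 1 in negative. Other members of the list fell under the filter on low counts. Gata6 had 15 counts in medium and 4 in negative, Afp 11 in medium and 2 in negative, Hnf4a 2 in each, and Apob 0 in medium and 3 in negative. Cubn had 18 in medium and 0 in negative, Apoa1 27 in medium and 12 in negative, and Sox7 17 in medium and 10 in negative. In the notochord list 4 of 8 tested genes rose and 0 fell, with summed levels of 346 to 430.4 CPM in medium and 204 to 221 CPM in negative. Vtn, given above, was among them. Krt18 and Krt19, keratins of simple epithelia, averaged 234 ± 23.7 and 21.1 ± 4.35 CPM in medium, against 112 ± 8.44 and 7.18 ± 0.917 CPM in negative (1.06 and 1.56 on the log2 scale). T, or brachyury, a factor expressed in the notochord among other tissues, averaged 2.48 ± 1.03 CPM in medium and 0.478 ± 0.187 CPM in negative (log2 fold change 2.32, SE 0.566, adjusted p = 0.00704), and Noto had 0 counts in either group. The part of endoderm or notochord cells in the other rises was not tested.

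Of the lists of further cell types, mesoderm and neural crest held genes called in both directions, surface ectoderm only higher ones and blood and vessel 1 lower one. Of 5 tested surface ectoderm genes Cdh1 and Cldn4 rose, with summed levels of 98.5 to 149.9 CPM in medium and 76.98 to 84.0 CPM in negative. Cdh1, or E-cadherin, had 48.6, 67.0, 36.6 and 47.4 CPM in medium and 31.3, 37.0, 32.0 and 23.9 CPM in negative (log2 fold change 0.69, SE 0.161, adjusted p = 0.00432), and the groups overlapped slightly; Cldn4 averaged 21.01 ± 3.22 CPM in medium and 9.64 ± 1.37 CPM in negative (log2 fold change 1.11, SE 0.191, adjusted p = 0.000157). Krt14 was at 0 counts and Krt5 at 13 in medium and 5 in negative. Of 6 tested mesoderm genes Meox1, a homeobox gene of somites, rose (44.7, 35.8, 50.3 and 40.4 CPM in medium and 16.5, 15.6, 16.4 and 13.5 CPM in negative, log2 fold change 1.47, SE 0.153, adjusted p = 4.37e-08) and Tcf15, a bHLH gene of somites and of stem cells about to leave the naive state, fell (5.50 ± 0.606 CPM in medium and 17.9 ± 5.83 CPM in negative, log2 fold change -1.69, SE 0.363, adjusted p = 0.00353). The list's summed level was 55.4 to 72.6 CPM in medium and 37.1 to 54.3 CPM in negative, Msgn1 was at 0 counts and Tbx6 at 5 in medium and 4 in negative. Meox1 was also higher in medium than in high, at 42.8 CPM in medium and 23.4 CPM in high (log2 fold change 0.86, adjusted p = 0.00185). Of 10 tested neural crest genes Sox9 rose and Tfap2c fell. Sox9, which also acts in neural progenitors and the floor plate, had 35.8, 49.97, 37.0 and 46.7 CPM in medium and 16.8, 12.2, 15.1 and 12.9 CPM in negative (log2 fold change 1.58, SE 0.156, adjusted p = 1.45e-08), while Tfap2c, an AP-2 factor also used by germ cells and trophoblast, had 14.0, 18.6, 17.1 and 20.3 CPM in medium and 73.1, 64.9, 87.9 and 78.9 CPM in negative (log2 fold change -2.12, SE 0.147, adjusted p = 5.47e-11). The summed crest level was 116 to 152 CPM in medium and 166 to 188 CPM in negative, with Sox10 at 3 counts in each group and Foxd3 at 0 in medium and 20 in negative. Of 2 tested blood and vessel genes Pecam1 fell (1.99 ± 0.684 CPM in medium and 7.39 ± 2.26 CPM in negative, log2 fold change -1.89, SE 0.394, adjusted p = 0.0016), with summed levels of 3.12 to 6.76 CPM in medium and 8.68 to 13.1 CPM in negative and Ptprc at 0 counts in medium and 2 in negative. The part of these cell types in the results above was not tested.

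Cell cycle genes differed at 2 regulators of the entry into S phase. Of 11 tested G1 cyclins and CDK inhibitors 1 rose and 1 fell in every fit. Cdkn1c, the imprinted CDK inhibitor p57, had 478, 578, 361 and 379.7 CPM in medium and 177, 113, 175 and 159.6 CPM in negative (log2 fold change 1.52, SE 0.16, adjusted p = 9.9e-07), with a wide gap between the groups. Ccnd2, cyclin D2, had 465, 455, 568 and 479.9 CPM in medium and 758, 637, 727 and 714 CPM in negative (log2 fold change -0.53, SE 0.105, adjusted p = 0.000992). Ccnd1 averaged 207 ± 27.8 CPM in medium and 182 ± 17.2 CPM in negative (adjusted p = 0.364). In the replication and mitosis list 1 of 18 fell, Rrm2, a subunit of ribonucleotide reductase (212 ± 20.8 CPM in medium and 294 ± 11.5 CPM in negative, log2 fold change -0.47, SE 0.097, adjusted p = 0.00131), and Top2a averaged 606 ± 97.8 CPM in medium and 614 ± 85.7 CPM in negative (adjusted p = 0.958). Of 11 p53 targets 2 rose, Perp (33.3 ± 6.08 CPM in medium and 18.8 ± 1.56 CPM in negative, log2 fold change 0.82, SE 0.163, adjusted p = 0.000872) and Phlda3 (119 ± 24.8 CPM in medium and 74.6 ± 11.4 CPM in negative, log2 fold change 0.67, SE 0.143, adjusted p = 0.00204), both linked to cell death, while Mdm2, the main feedback inhibitor, averaged 68.8 ± 6.78 CPM in medium and 64.0 ± 3.05 CPM in negative (adjusted p = 0.699).

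In the lists of glycolysis and cholesterol synthesis some genes were lower and none higher in every fit. Of 20 glycolysis and hypoxia genes 2 fell in every fit and 0 rose. Pdk1, a pyruvate dehydrogenase kinase, had 26.6, 25.6, 22.1 and 23.9 CPM in medium and 34.3, 45.7, 36.2 and 36.8 CPM in negative (log2 fold change -0.64, SE 0.143, adjusted p = 0.00322). Pfkp, a phosphofructokinase, averaged 3.14 ± 0.839 CPM in medium and 10.3 ± 3.59 CPM in negative (log2 fold change -1.69, SE 0.344, adjusted p = 0.00125). Gapdh and Pkm were not called (adjusted p = 0.852 and 0.435). Of 13 cholesterol synthesis genes 3 fell in every fit and 0 rose, with a median log2 fold change of -0.42 over the list and summed levels of 946 to 992 CPM in medium and 1219.8 to 1330.0 CPM in negative. Hmgcs1, the synthase at the start of the pathway, had 112, 113, 118 and 115 CPM in medium and 185, 167, 167 and 157 CPM in negative (log2 fold change -0.56, SE 0.107, adjusted p = 0.000653). Lss, lanosterol synthase, averaged 22.7 ± 5.49 CPM in medium and 37.1 ± 3.73 CPM in negative (log2 fold change -0.71, SE 0.171, adjusted p = 0.00584), and Insig1, which holds back sterol synthesis, 32.4 ± 7.55 CPM in medium and 55.1 ± 8.17 CPM in negative (log2 fold change -0.76, SE 0.164, adjusted p = 0.0021). Of 7 immediate early and heat shock genes, which can follow handling of cells, Jun rose (90.4 ± 21.9 CPM in medium and 46.9 ± 9.17 CPM in negative, log2 fold change 0.94, SE 0.178, adjusted p = 0.000992) and Ier2 was not called (388 ± 50.4 CPM in medium and 358 ± 77.2 CPM in negative, adjusted p = 0.718).

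Of 6 tested genes used mainly in the germline, Khdc3 rose and none fell in every fit. The median log2 fold change of this list was -0.63, and 1 gene passed with a lower level in the full fit only. Among called genes with many counts, Gpx3, a secreted glutathione peroxidase, had 961, 874, 1146 and 915 CPM in medium and 394, 362, 292 and 345 CPM in negative (log2 fold change 1.48, SE 0.109, adjusted p = 5.47e-11). Tagln2, an actin-binding protein, averaged 489.7 ± 50.3 CPM in medium and 243 ± 19.6 CPM in negative (log2 fold change 1.01, SE 0.0942, adjusted p = 4.27e-09), and Ifitm1, an interferon-induced membrane protein of early embryonic cells, 445 ± 48.8 CPM in medium and 253 ± 34.3 CPM in negative (log2 fold change 0.82, SE 0.102, adjusted p = 1.25e-06). Cadm1, Mphosph8, Ttc3 and Wbp5 also rose, by 0.46, 0.58, 0.43 and 0.78 on the log2 scale. Apoe, the lipid carrier apolipoprotein E, had 1377, 1241, 1124 and 1277 CPM in medium and 1938, 2117, 1930.4 and 1730.0 CPM in negative (log2 fold change -0.62, SE 0.091, adjusted p = 1.58e-05). Mest, an imprinted gene expressed from the paternal copy, had 776, 958, 703 and 812 CPM in medium and 1342, 1271, 1260.5 and 1267 CPM in negative (log2 fold change -0.66, SE 0.0963, adjusted p = 1.43e-05). Hsp90aa1, Mt2, Eif4ebp1, Hells and Rfc5 fell as well, with log2 fold changes of -0.57, -0.52, -0.73, -0.50 and -0.45. Apart from Gpx3 and Tagln2, these changes were smaller than 2-fold, and spreads were not narrow in all of them. Ttc3 had 563, 725, 535 and 530 CPM in medium and 433, 428, 442 and 444 CPM in negative. For Cadm1 the groups nearly touched, at 340.7 CPM in medium 3 and 339.8 CPM in negative 4.

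The place of the medium gate between its neighbours was tested in the same fit. In the full fit alone, medium was higher than low in 68 genes (0.49%) and lower in 31 (0.223%), or 99 in all (0.713%). It was higher than high in 76 genes (0.547%) and lower in 51 (0.367%), or 127 in all (0.914%). Single libraries moved these counts: leaving out low 3 gave 34 higher and 20 lower than low, leaving out medium 2 gave 121 higher and 112 lower than high, and leaving out medium 3 gave 26 lower than high. The single genes named in these comparisons, Nanog and Utf1 aside, kept their side of the threshold in each of the 16 fits without 1 library. These comparisons share the medium libraries with the one above, so their calls are not independent of it. Igf1 averaged 1.71, 5.15, 24.0 and 42.7 CPM in negative, low, medium and high, with medium higher than low (log2 fold change 2.24, adjusted p = 1.13e-06). Vtn followed the same order, at 0.813, 1.76, 10.4 and 25.8 CPM in negative, low, medium and high (medium against high, log2 fold change -1.31, adjusted p = 0.00301). Sox17, at 11.7, 52.4, 112 and 134 CPM in negative, low, medium and high, was higher in medium than in low (log2 fold change 1.09, adjusted p = 0.00191) and was not called against high (log2 fold change -0.27, adjusted p = 0.741). Bmp4 averaged 5.03, 11.2, 26.8 and 33.4 CPM in negative, low, medium and high, with medium above low (log2 fold change 1.27, adjusted p = 0.000695) and no call against high (log2 fold change -0.30, adjusted p = 0.73).

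Among the genes that fell, the pluripotency genes had low means in the low gate too. Nanog averaged 23.6, 4.69, 1.01 and 0.742 CPM and Utf1 364, 50.01, 24.99 and 16.8 CPM in negative, low, medium and high. Mest, Ccnd2 and Hes3 differed between medium and a neighbouring gate. Mest averaged 1285, 1232, 812 and 527 CPM in negative, low, medium and high, with medium lower than low (log2 fold change -0.60, adjusted p = 0.000522) and higher than high (log2 fold change 0.62, adjusted p = 0.000333). Ccnd2 averaged 709, 689, 492 and 299 CPM in negative, low, medium and high and was higher in medium than in high (log2 fold change 0.72, adjusted p = 0.000205). Hes3, at 50.2, 29.5, 11.1 and 3.74 CPM in negative, low, medium and high, was lower in medium than in low (log2 fold change -1.41, adjusted p = 7.76e-05) and higher than in high (log2 fold change 1.53, adjusted p = 0.000365).

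**Figure D5:**
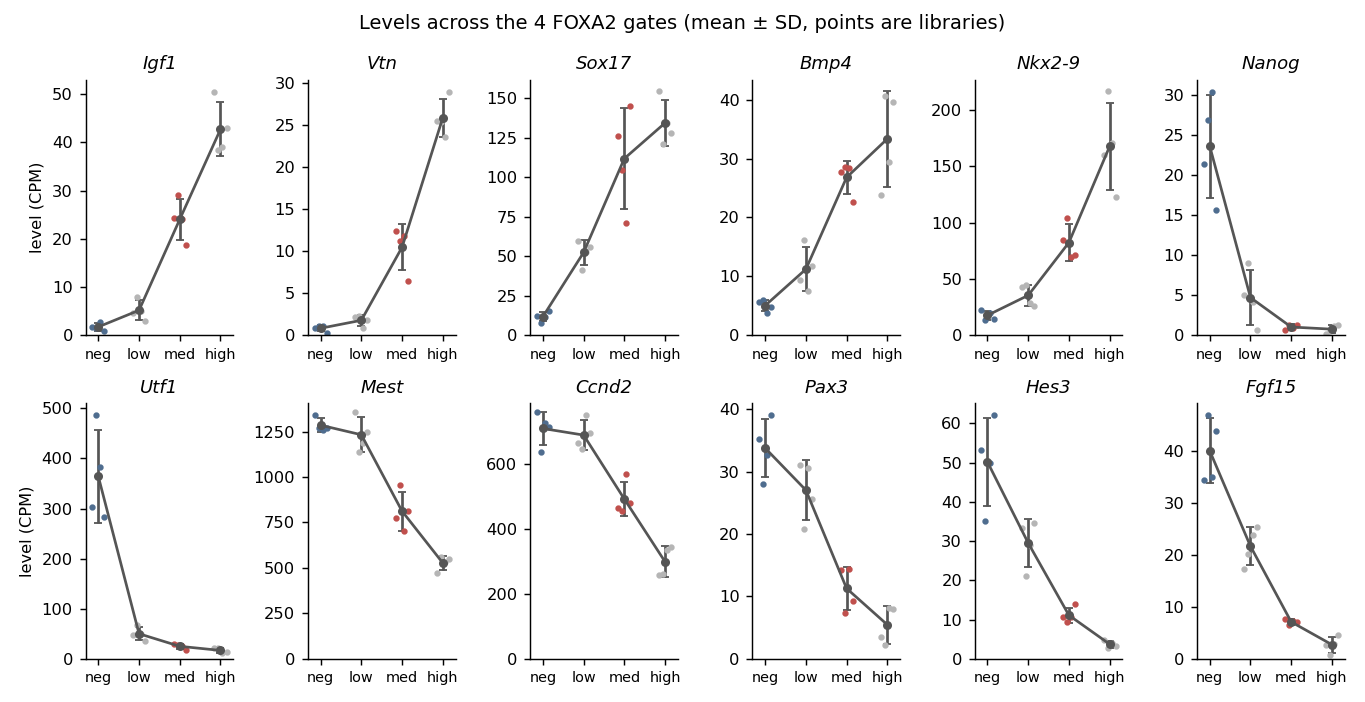
Levels of 12 genes in CPM across the negative, low, medium and high gates, with libraries as points and the mean ± SD as a line with bars (n = 4 each). Igf1 and Vtn were highest in high, and the means of Nanog and Utf1 were highest in negative and lower at each later gate. The means of Mest, Ccnd2, Pax3, Hes3 and Fgf15 were lower at medium than at low and lower again at high.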

How the data were processed

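The authors deposited 1 table of raw, unnormalized counts of 35976 genes in the 16 libraries. Per the submitters' processing notes, reads were handled with STARsolo 2.7.9a, cutadapt 1.18 and DESeq2 1.42.0 on GRCm38. Annotation, strand setting and molecular identifiers: not given in the sources used here. Of 171 genes named here with a position in GENCODE M21 (GRCm38), 76 overlap another annotated gene, and their reads may be shared. BRB-seq reads mostly 3′ ends, so levels of different genes are not compared.

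Columns were matched to samples by name. The tests used edgeR 4.0.16 (R 4.3.3). Its expression filter kept 13891 genes, holding 99.7% to 99.8% of each library's counts, libraries were scaled by TMM, and a robust quasi-likelihood model of the 4 gates was fitted to all 16 libraries and tested with Benjamini-Hochberg adjustment at 0.05 within each comparison. A standard error is the log2 fold change over the root of its F value. CPM are counts scaled to a common library total after TMM. No pair of libraries in a group agreed within sampling noise (chi-square per degree of freedom 5.09 or more), so none was counted as a duplicate. Where a library shows 0, counting error alone leaves room for 3 counts, which is 0.307 to 0.590 CPM in these 8 libraries. On simulated data with the real means and library sizes, the test for medium versus negative recovered 58 of 100 genes with a 2-fold change and 94 of 100 with a 4-fold change, and falsely called 9 of 13691 others.

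The comparison and the 40 gene lists (528 genes, 433 tested, 2 of them in more than 1 list) were chosen with earlier results of these data known, so no list is independent evidence of a direction, and lists were described by counts and medians with no set test. Counting only calls that held in all fits was chosen after the data were seen. Genes named were the 15 largest rises and the 15 largest falls, and the 8 with the highest mean level in each direction, among genes with a proper name that were called in every fit, where the 2 groups did not overlap and the higher one averaged 10 CPM or more; up to 5 called members of a list in each direction and up to 3 not called were added. A rule for genes that differ in the same direction from all 3 other gates took none. Cpn1, Apela, Zfp296 and Pim2 were named for their promoter windows, and Lefty1, Hhip, Ntn1, Slit2, Acvr2b and Meis2 after their values were seen. Some genes that the rule takes are not reported here.

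The alternatives were DESeq2 1.42.0, RLE scaling, no filter on low counts, a fit of only the 2 groups compared, the replicate number as a block, thinning to the smallest total (3268948) and each library left out in turn. A fit without low 1 and medium 2 was added after the data were seen. The library numbers 1 to 4 recur in every gate, and whether they mark pairs is not settled here. The correlations of the deviations of same-numbered medium and negative libraries were 0.082, -0.060, -0.061 and 0.216. Those of differently numbered libraries ran from -0.176 (medium 2 and negative 4) to 0.217 (medium 2 and negative 3).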

Additional observations from a re-analysis of the deposited data

Results flagged for a closer look

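In 344 groups of 4 libraries (172 genes named in the text, in medium and in negative), 18 held a library whose gap to its nearest neighbour took a larger part of the group's range than Dixon's 95% critical value allows. Chance gives such a gap in about 1 in 20 groups. The library was negative 2 in 8 of the 18 groups, medium 2 in 5, medium 1 and negative 1 in 2 each and medium 4 in 1, and the causes were not tested.

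Among genes not called in the full fit, Meis2 stood out: negative 1 had 33902 CPM, against 387 to 519 in the other negative libraries, and without it the log2 fold change was 0.30 (adjusted p = 0.366). Sulf1 had 114 CPM in medium 2, against 74.8 to 78.9 in the other medium libraries (log2 fold change 0.13 without it, adjusted p = 0.682). Lefty1 had 60.9 CPM in medium 2, against 16.1 to 20.4, and passed without that library (-2.48, adjusted p = 0.0132).

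The remaining genes kept their call without the library that stood apart. In medium 2, Ptch1 had 99.1 CPM (53.1 to 57.8 in the other medium libraries), Fgf17 1.98 CPM (0.283 to 0.394) and Ttc3 725 CPM (530.3 to 563). In medium 1, Cdh11 had 8.46 CPM (7.09 to 7.22) and Ephb3 38.0 CPM (44.7 to 45.5). Bmp4 had 22.7 CPM in medium 4 (27.8 to 28.5). In negative 2, Aoah had 24.3 CPM (13.9 to 15.5 in the other negative libraries), Hes5 119 CPM (79.7 to 86.4), Sfrp2 138 CPM (97.0 to 104), Dusp4 52.3 CPM (31.1 to 34.7), Dab2 23.3 CPM (9.88 to 11.5), Eif4ebp1 1435 CPM (1175 to 1218) and Pim2 113 CPM (54.9 to 58.2). Ttr had 0.174 CPM in negative 2, which is 1 count, and 0 in the other negative libraries. Mest had 1342 CPM in negative 1 (1260.5 to 1271). Without the library concerned, Ptch1 changed by 0.97 on the log2 scale, Fgf17 by -4.13, Bmp4 by 2.48, Dab2 by 1.53 and Pim2 by -2.30.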

How the results depend on the processing

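The counts for medium versus negative stayed within 1.5 times under every alternative run. Higher and lower genes numbered 668 and 719 with DESeq2, 578 and 593 with RLE scaling, 736 and 641 when low counts were not filtered, 468 and 465 with only the 2 groups in the fit, 463 and 456 after thinning, and 599 and 577 without low 1 and medium 2. Leaving out 1 library in turn gave 477 to 611 higher and 434 to 603 lower. With the library numbers as a replicate block 639 were higher and 654 lower. No result changed direction with a call. All 45 genes named as largest or most abundant changes kept their side of the threshold under every alternative. For the 16 fits that left out 1 library this was fixed by the rule that chose these genes. Of the other genes, Lefty1, Hhip and Meis2 depended on the setting. After thinning 10 of the genes named fell under the filter on low counts, and 6 with only the 2 groups in the fit, and they have no value there. The scaling moved the median log2 fold change of all genes by less than 0.1.

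The counts between neighbouring gates were less stable. Medium versus low gave 106 higher and 55 lower with DESeq2, 120 and 69 with no filter, 39 and 18 with only the 2 groups, and 34 to 79 and 16 to 35 when 1 library was left out, with low 3, low 4 and medium 1 moving a count by over 1.5 times. Medium versus high gave 135 higher and 87 lower with no filter, 83 lower with DESeq2, 153 higher and 171 lower without low 1 and medium 2, and 46 to 121 and 26 to 112 when 1 library was left out. The libraries that moved these counts by over 1.5 times were high 1, medium 2 and medium 4 for higher genes, and medium 1 to 4, high 1, high 2 and high 4 for lower genes. The cause of these differences was not tested. Depth limits genes of a few counts per library, such as Shh, Pou5f1 and Nog, which were not tested.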
